A study of Mus musculus with 4 samples.

Results

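Integrins and the proteins that tie them to the actin cytoskeleton were followed here in mAECs, a line of murine aortic endothelial cells, by RNA sequencing. The genes were chosen by symbol as all integrin alpha subunits with a number or v in the name, the beta subunits from Itgb1 to Itgb8, and 16 focal adhesion genes. This gave 37 of the 27179 rows of the count table, 21 of them integrin subunits and 16 adaptors, kinases and scaffolds. The control group (2 libraries) was grown in normal medium. The conditioned medium group (2 libraries) received the supernatant of TNFα+CD68+ macrophages, with no genetic change named for either group. The series calls the libraries of a group biological replicates. Treatment time and dilution are not stated in the labels. All cells belong to the same line, so the data describe that line under both conditions.

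An integrin is a receptor made of an alpha and a beta subunit that spans the membrane, binds extracellular matrix or a counter-receptor outside, and binds talin and kindlin through the beta tail inside. The pairing of alpha and beta sets the ligand: laminin, collagen, fibronectin and other RGD proteins, or adhesion molecules of other cells. Talin, vinculin, the complex of ILK, PINCH and parvin, and the kinase FAK then link the receptor to actin and to signalling, and in arterial endothelium these contacts hold the cell layer to its basement membrane under flow.

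Of the 37 genes, 32 passed the count filter and 7 of them (21.9%) were called at an adjusted p under 0.05, beside 16.8% of all 13897 genes tested. The integrin genes Itga6, Itgb2, Itga5 and Itga2 rose, by 1.26-fold, 1.28-fold, 1.11-fold and 1.51-fold. The integrin gene Itga4 and the adaptor genes Lims1 and Parva fell, by 1.21-fold, 1.21-fold and 1.16-fold. The main beta subunit of the cells, Itgb1, and the proteins that act directly on beta tails, the talins and kindlins, were not called. Among all genes 8.53% were called higher and 8.23% lower, against 4 and 3 of the 32 here, so the share of calls lies near the background. The median log2 fold change of the 32 genes was 0.06, with an absolute median of 0.11, where all tested genes had 0.00037 and an absolute median of 0.13. DESeq2 called 2 genes higher, Itga6 and Itgb2, and 2 lower, Lims1 and Parva.

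**Figure D1:**
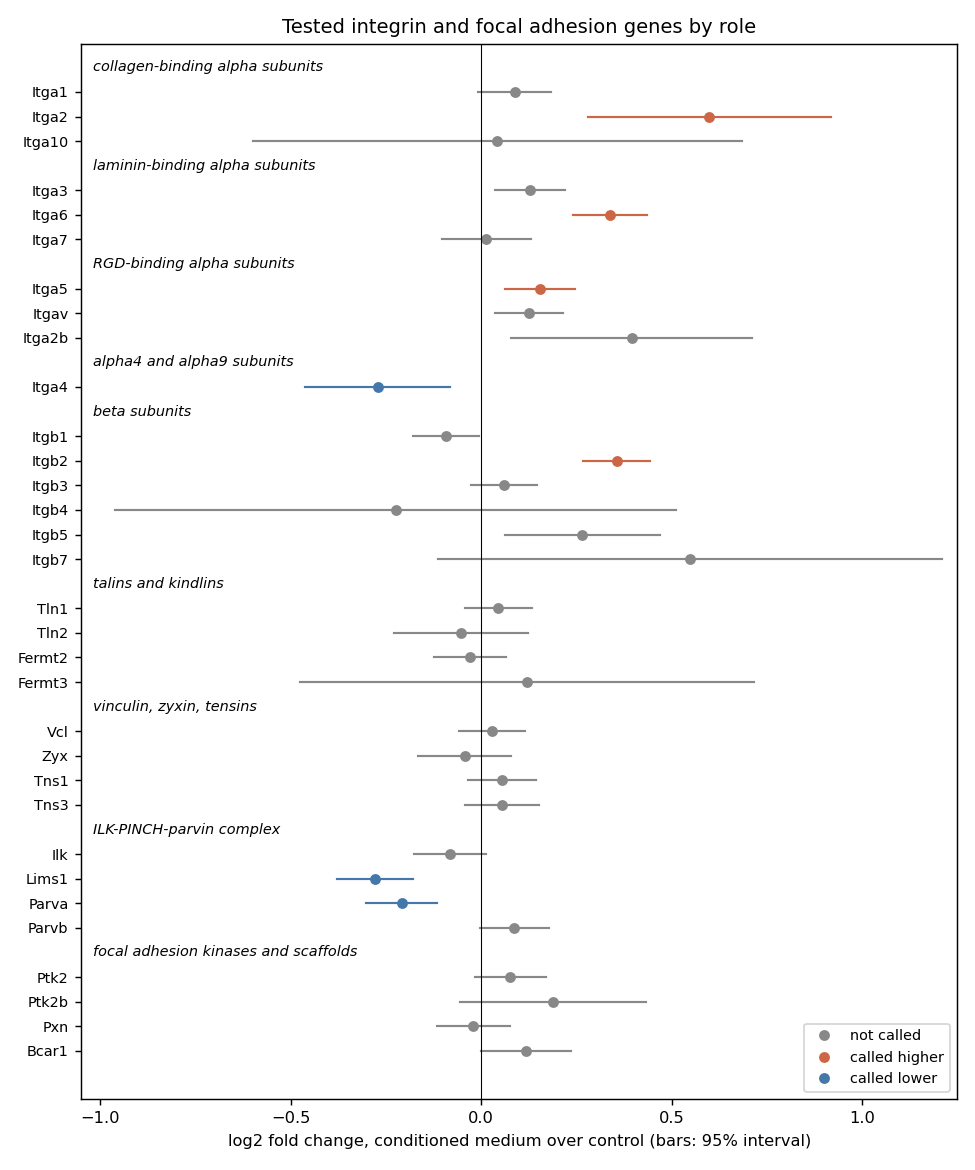
Log2 fold change (x axis, conditioned medium over control) of the 32 tested genes, grouped by role, with 95% intervals from the edgeR fit as bars. Of the 7 called genes, 4 lie to the right of 0 and 3 to the left, and the intervals widen for genes with few counts such as Itgb4 and Itgb7.

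The libraries held 13815695 to 18005840 counts, and 3 counts equalled 0.167 to 0.217 CPM of the library totals before scaling. All other CPM values give the count as a share of the library total after TMM scaling. Mitochondrial genes took 4.42% to 4.68% of the control counts and 4.21% to 4.25% of the conditioned medium counts. The 12 endothelial markers summed to 7568 and 7569 CPM in control and to 7774 and 7854 CPM in conditioned medium, with Pecam1 at 2386 to 2445 CPM. Of these 12, 41.7% were called, beside 16.8% of all genes tested: Flt1, Egfl7 and Eng rose and Kdr and Emcn fell. Vwf, the gene of von Willebrand factor, stood at 2.30 to 3.49 CPM. The labels name no culture or sequencing batch; were there one along the group line, it and the treatment cannot be told apart. In bulk RNA, fewer cells that express a gene and less RNA per cell cannot be told apart either.

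Promoter sequence is shown for the called genes that have a RefSeq window on GRCm38.p6 (the mm10 build), so that their composition can be compared: Itga2 and Itga5, which rose, and Itga4 and Lims1, which fell. Windows were matched for 27 of the 37 genes and for 4 of the 7 called ones, and the 250 bases before each start are printed 5′ to 3′ on the gene's strand. Capitals mark matches on either strand to any of 7 motifs. These were GGGCGG, the GC box of Sp1-type factors, and CCGGAA, the core bound by ETS factors. The AP-1 motif was searched as TGANTCA. The GAS element was searched as TTCNNNGAA. The TEAD motif was CATTCC, the TATA box was TATAAA, and an NF-kB motif was searched as well. Lims1 has 3 windows in the table, and the one with the lowest coordinates is shown; it lies largely inside the gene span given for Lims1 with its values, which begins at 58323342.
Itga2 (chr13:114932101-114932350, - strand): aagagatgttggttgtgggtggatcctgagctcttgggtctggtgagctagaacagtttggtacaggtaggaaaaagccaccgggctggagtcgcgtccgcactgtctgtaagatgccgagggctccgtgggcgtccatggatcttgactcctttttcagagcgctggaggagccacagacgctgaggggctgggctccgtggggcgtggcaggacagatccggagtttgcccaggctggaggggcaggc
Itga5 (chr15:103366792-103367041, - strand): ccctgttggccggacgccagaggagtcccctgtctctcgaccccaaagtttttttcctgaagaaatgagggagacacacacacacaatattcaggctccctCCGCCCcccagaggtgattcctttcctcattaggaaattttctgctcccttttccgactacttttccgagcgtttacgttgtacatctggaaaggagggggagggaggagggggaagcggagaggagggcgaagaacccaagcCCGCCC
Itga4 (chr2:79255176-79255425, + strand): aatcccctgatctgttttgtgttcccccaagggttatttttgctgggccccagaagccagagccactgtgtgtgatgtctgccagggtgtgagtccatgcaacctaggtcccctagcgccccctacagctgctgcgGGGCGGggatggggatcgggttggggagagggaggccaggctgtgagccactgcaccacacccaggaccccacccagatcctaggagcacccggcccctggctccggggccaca
Lims1 (chr10:58323297-58323546, + strand): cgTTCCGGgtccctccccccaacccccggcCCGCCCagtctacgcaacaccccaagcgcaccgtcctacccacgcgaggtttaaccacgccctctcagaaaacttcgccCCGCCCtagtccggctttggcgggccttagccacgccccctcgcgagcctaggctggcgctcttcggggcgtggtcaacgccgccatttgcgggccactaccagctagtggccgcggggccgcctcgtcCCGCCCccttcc

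These windows differed in their matches. The Itga5 window held 2 GC boxes, that of Itga4 held 1, that of Lims1 held 3 with 1 ETS core, and that of Itga2 held none of the 7 motifs searched. A GC box was present in 32.7% and an ETS core in 12.0% of all 32851 windows of this length. AP-1, NF-kB, GAS, TEAD and TATA matches, which occurred in 6.75%, 0.356%, 7.02%, 12.6% and 12.4% of all windows, were in none of the 4 windows, and none of these matches shows binding. Of the Lims1 windows not printed, chr10:58351713-58351962 held none of the motifs at 34.8% GC, and chr10:58371204-58371453 held 2 TATA matches and none of the other motifs at 46.8% GC. GC content was 60.8% for Itga2, 55.6% for Itga5, 64.0% for Itga4 and 70.8% for Lims1.

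Levels between genes were compared as RPKM, the TMM-scaled CPM per kilobase of annotated exon. In control cells Itgb1, the beta subunit shared by most matrix receptors, was highest at 312 ± 8.94 RPKM (mean ± SD, n = 2). Itgb3, the partner of the alpha-v subunit in the vitronectin receptor, followed at 198 ± 0.49 RPKM, and Itga5, the fibronectin receptor alpha subunit, at 157 ± 6.77 RPKM. Next came Vcl, which encodes vinculin and strengthens the link to actin, at 120.0 ± 2.09 RPKM. Itga3 at 105 ± 4.23 RPKM and Itgb2 at 104 ± 0.857 RPKM overlapped between their control libraries, as did Tns1 with Itga6, Zyx with Bcar1, and Bcar1 with Itga7, while all other neighbours in the order separated. A total of 22 genes stood at 10 RPKM or more in control cells. Itga5, Itga3 and Itga6 made up 36.2%, 24.3% and 18.5% of the summed alpha subunit RPKM of control cells. Itgb1, Itgb3 and Itgb2 made up 50.2%, 31.9% and 16.8% of the summed beta subunit RPKM.

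**Figure D2:**
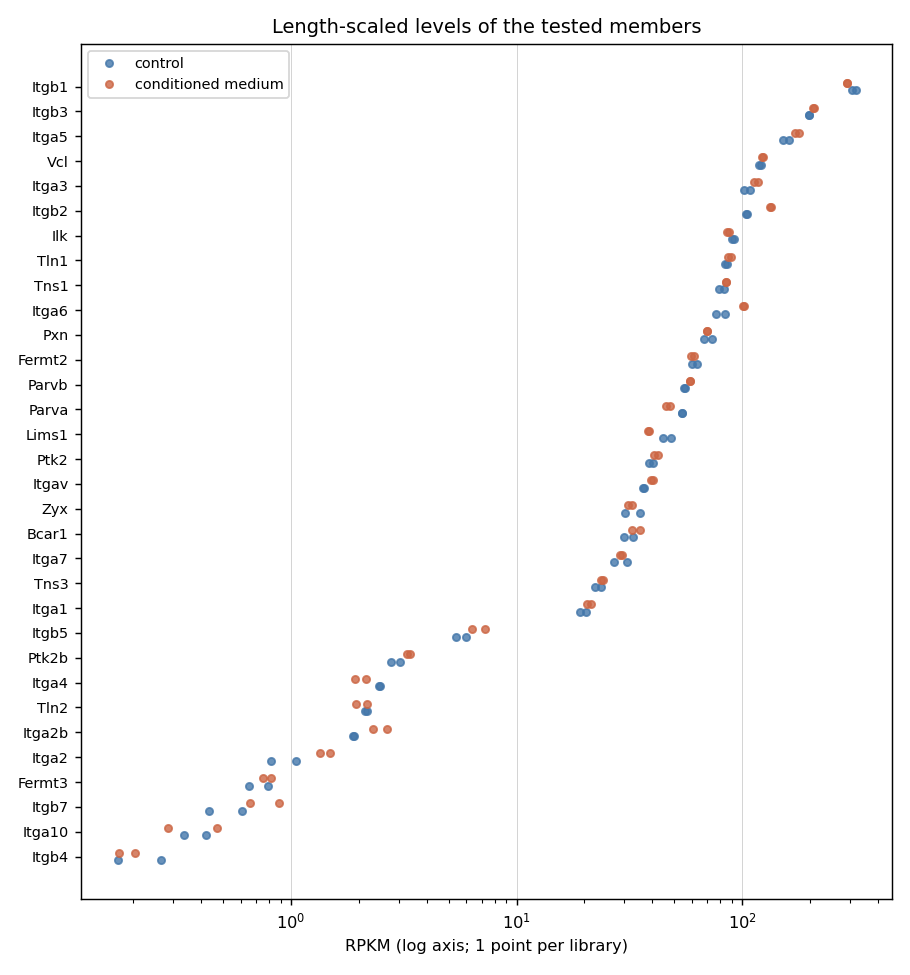
RPKM on a log axis for each of the 32 tested genes, with 1 point per library, ordered by the control mean. Itgb1 and Itgb3 lead the order in both groups, and both conditioned medium points lie right of both control points for Itga6 and Itgb2 and, by less, for others such as Itgb3, Itga5, Itga3, Vcl, Tln1 and Tns1.

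The order depends on the exon lengths used. With lengths from the comprehensive rather than the basic annotation, an alternative chosen after seeing the data, 9 of the 10 most abundant genes were shared. The gene that left was Itga6, whose exon length grew from 4361 to 9025 bases: its control level was then 38.7 RPKM at rank 14, and its share of the summed alpha subunit RPKM 11.7% instead of 18.5%. Between conditions its rank then went from 14 to 11 and its share from 11.7% to 13.3%. Itgb2 was then at rank 4 in both groups. With the basic lengths, Itgb2 moved from rank 6 to rank 4 and Itga6 from rank 10 to rank 7, while Itgb1, Itgb3 and Itga5 kept ranks 1, 2 and 3.

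Among the laminin-binding alpha subunits, Itga6 rose. Its product pairs with β1 or β4 as a receptor for laminins of the basement membrane. Itga6 (Entrez 16403; mm10 chromosome 2, 71786886 to 71858427) stood at 365 and 334 CPM in the control libraries and at 438 and 445 CPM with conditioned medium. Both treated libraries lay above both controls, and Itga6 differed by 0.34 ± 0.05 on the log2 scale (SE; edgeR adjusted p = 2.96e-05). The call held in each of 13 alternative analyses, with adjusted p from 2.57e-24 to 0.0286. Itga3, the alpha subunit of another laminin receptor, had 537 and 569 CPM in control and 616 and 592 CPM in treated libraries, also without overlap. Its log2 fold change of 0.13 ± 0.04 missed the threshold (edgeR adjusted p = 0.0535), and 6 of the 13 alternatives called it. Itga7, a laminin receptor subunit best known from muscle, overlapped between groups at 112 to 127 CPM in control and 119 to 122 CPM in treated libraries.

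Itgb4, the beta subunit that pairs with alpha 6 in hemidesmosomes of epithelia, had only 25 and 16 counts in control and 18 and 20 counts with conditioned medium. Per length, Itgb4 was at 0.219 RPKM in control cells, where Itgb1 was at 312 RPKM. Within each library the count ratio of Itga6 to Itgb1 was 0.301 and 0.287 in control and 0.393 and 0.399 in treated cells. The ratio of Itga6 to Itga3 was 0.679 and 0.588 in control and 0.711 and 0.753 in treated cells, so the groups separated for both ratios. Of the summed alpha subunit RPKM, Itga6 made up 19.6% and 17.4% in the control libraries and 20.7% and 20.9% in the treated ones.

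Among alpha subunits that recognise the RGD motif, Itga5 rose slightly. Paired with β1 it forms the classic fibronectin receptor. Itga5 (Entrez 16402; mm10 chromosome 15, 103344286 to 103366791) was at 668 and 709.6 CPM in control and at 751 and 781 CPM in treated libraries, without overlap. The log2 fold change was 0.15 ± 0.04 (SE; edgeR adjusted p = 0.0195). DESeq2 did not call it (adjusted p = 0.0609), nor did the fits lacking treated library 1 (0.173) or 2 (0.391), within a range from 5.32e-08 to 0.391 over the 13 alternatives. Itgav, which encodes the alpha-v subunit of vitronectin and TGF-beta-activating receptors, had 257 and 259 CPM in control and 285 and 278 CPM in treated libraries. That difference of 0.12 ± 0.04 on the log2 scale was not called (edgeR adjusted p = 0.0517), and 7 of 13 alternatives called it. The opposite strand gene Gm13684 overlaps 634 exon bases of Itgav, and the library kit does not mark strand.

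Itga2b, the platelet subunit that pairs with β3 as the fibrinogen receptor, held 97 and 95 counts in control and 110 and 165 counts with conditioned medium. Its log2 fold change was 0.40 ± 0.15 (SE; edgeR adjusted p = 0.0813) and was not called. The list of 8 platelet and megakaryocyte markers, which contains Itga2b, summed to 10.98 and 11.37 CPM in control and to 13.1 and 14.3 CPM in treated libraries, with Ppbp, Gp6 and Treml1 at 0 in all 4 libraries. Pf4 had 14 and 14 counts in control against 18 and 28, without overlap and not called (edgeR adjusted p = 0.284). Gp1ba had 23 to 27, Gp1bb 23 to 31 and Gp9 5 to 7 counts, with the groups overlapping. The part of such cells in the Itga2b values was not tested. Itga8, another RGD-binding subunit, had 2 or 3 counts in every library and was not tested.

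Itga2, the alpha subunit of a collagen receptor paired with β1, rose from a low level. Itga2 (Entrez 16398; mm10 chromosome 13, 114833081 to 114932100) held 111 and 85 counts in control and 132 and 191 counts in treated libraries, or 7.52 and 5.82 CPM against 9.53 and 10.6 CPM. The groups did not overlap, and the log2 fold change was 0.60 ± 0.15 (SE; edgeR adjusted p = 0.00938). The call was lost in DESeq2 (adjusted p = 0.128) and without control replicate 2, conditioned medium replicate 1 or conditioned medium replicate 2 (adjusted p = 0.0541, 0.0534 and 0.198), and the alternatives reached down to 2.41e-04. Itga1, the alpha subunit of another collagen receptor, was at 223 and 209 CPM in control and 234 and 225 CPM in treated libraries. The fold change of Itga1 on the log2 scale was 0.09 ± 0.05 (edgeR adjusted p = 0.214). Itga10, with 20 to 43 counts a library, was not called, and Itga11, a collagen receptor subunit of fibroblasts, had 4 to 7 counts and was not tested. On the same strand, Gm42957 overlaps 1739 exon bases of Itga10 and Gm49395 overlaps 685 of Itga1.

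Itga4 was the only alpha subunit called lower among the 10 tested. Its product pairs with β1 or β7 and binds VCAM1 and fibronectin, mainly on leukocytes. Itga4 (Entrez 16401; mm10 chromosome 2, 79255426 to 79333114) was at 24.1 and 24.4 CPM in control and at 18.8 and 21.1 CPM in treated libraries. The log2 difference of -0.27 ± 0.09 (SE; edgeR adjusted p = 0.0457) lay just inside the threshold. Over the 13 alternatives its adjusted p ran from 0.0271 to 0.361, and 7 did not call it. Those were scaling by upper quartile (0.0626) or library totals (0.0632), no count filter (0.0763), DESeq2 (0.344), and the fits without control replicate 2 (0.0598), conditioned medium replicate 1 (0.361) or replicate 2 (0.119). Exons of Cerkl on the opposite strand overlap 1124 exon bases of Itga4, and without strand their reads cannot be told apart. Its relative Itga9 had at most 4 counts a library.

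**Figure D3:**
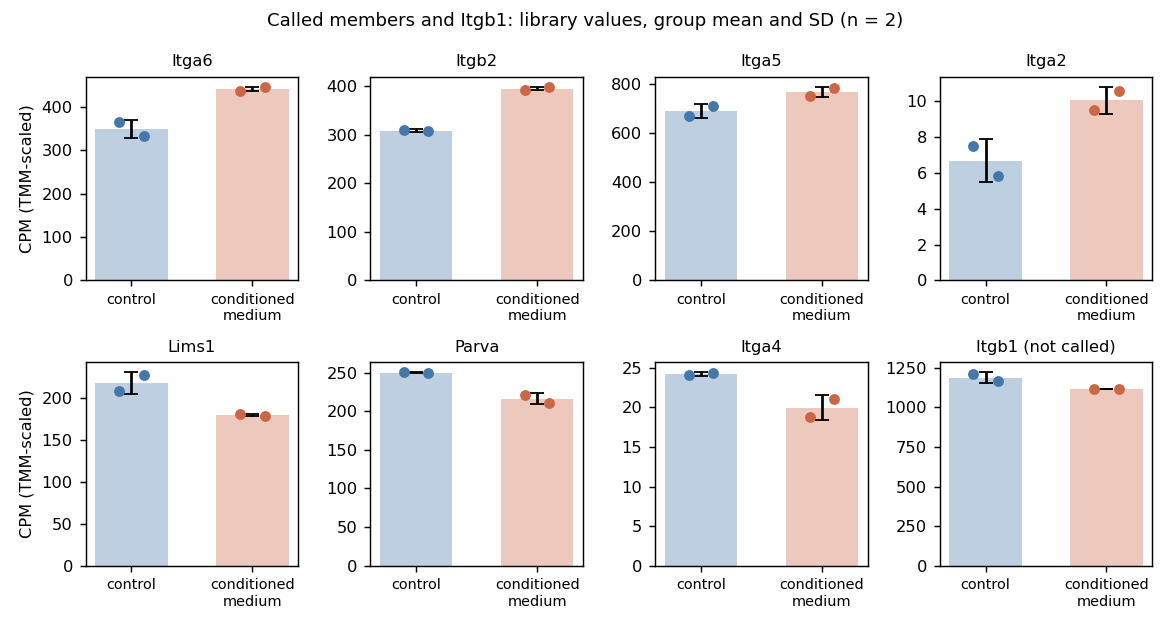
CPM in each library (points), with the group mean as a bar from 0 and the SD as the error bar (n = 2), for the 7 called genes and for Itgb1, which was not called. The groups do not overlap in any of the 8 panels, and the differences are small against the levels, the largest being the 1.51-fold rise of the low-level Itga2.

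Of the 6 beta subunits tested, Itgb2 alone was called. Its product is the common beta chain of the leukocyte integrins LFA-1 and Mac-1 and pairs with alpha L, M, X or D. Itgb2 (Entrez 16414; mm10 chromosome 10, 77530329 to 77565708) stood at 311 and 307 CPM in control and at 393 and 398 CPM in treated libraries. The libraries within a group were close together and the groups far apart, with a log2 difference of 0.36 ± 0.04 (SE; edgeR adjusted p = 5.49e-06). All 13 alternatives called it, at log2 fold changes of 0.35 to 0.37 and adjusted p from 4.43e-19 to 0.0130. As a share of the summed beta subunit RPKM it went from 16.7% and 16.9% to 20.8% and 20.9%.

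The alpha partners of Itgb2 were close to the counting floor. Itgax, the alpha X gene, held 16 and 20 counts in control and 38 and 45 counts in treated libraries. Itgax rose by 1.08 ± 0.30 on the log2 scale (edgeR adjusted p = 0.0154). That call was lost in DESeq2, without control replicate 1 and without either treated library, the highest adjusted p over its alternatives being 0.194 and the lowest 0.00572. Itgal, the alpha L gene, had 5 and 3 counts in control against 17 and 12, and Itgam, the alpha M gene, had 0 and 1 against 3 and 1. Neither passed the count filter, nor did Itgad, and Itgae, the alpha E gene, which pairs with β7, was at 2.30 and 2.26 CPM in control and 1.88 and 1.28 CPM in treated libraries and was not called (edgeR adjusted p = 0.219).

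**Figure D4:**
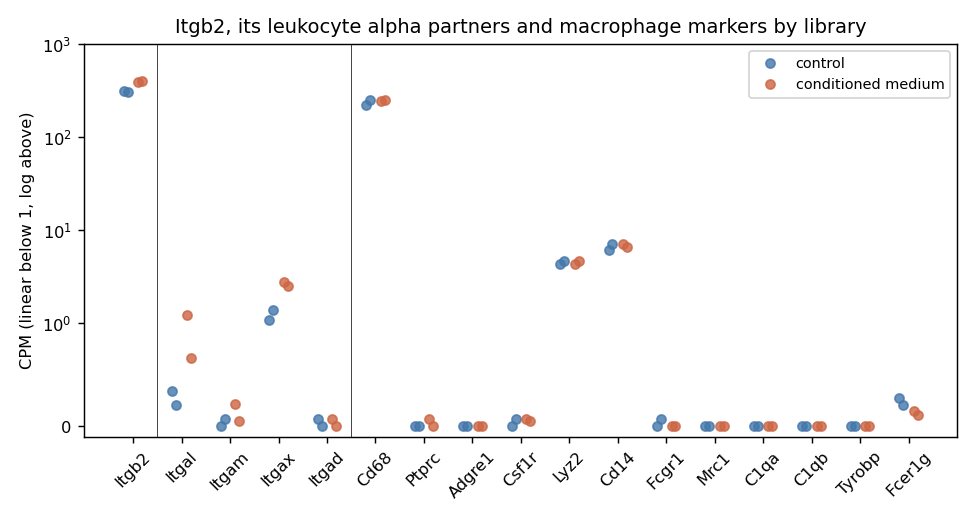
CPM by library (linear below 1 and logarithmic above) of Itgb2, of its 4 alpha partners and of the 12 macrophage markers. Itgb2 and Cd68 stand above 200 CPM in all 4 libraries, the alpha partners stay below 3 CPM, Cd14 and Lyz2 lie between 4.26 and 7.15 CPM, and the other markers stay below 1 CPM.

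Markers of leukocytes that could carry Itgb2 were read beside it. The 12 macrophage markers summed to 231 and 260.4 CPM in control and to 253 and 260.4 CPM in treated libraries, of which Cd68 gave 220.1 and 248 CPM and 241 and 249 CPM. Cd68 was thus present in the control cells, which had received no macrophage supernatant, and was not called (edgeR adjusted p = 0.429). Cd14, at 6.10 and 7.12 CPM in control and 7.15 and 6.49 CPM in treated libraries, and Lyz2, at 4.34 and 4.59 CPM against 4.26 and 4.66 CPM, were also detected in every library and not called. Fcer1g had 2 to 4 counts. The other 8 of the 12 markers never exceeded 1 count and 5 of them were at 0 in all libraries, among the 8 Ptprc, the pan-leukocyte gene for CD45, with 0, 0, 1 and 0 counts. The neutrophil list summed to 13.6 and 6.85 CPM in control and to 38.9 and 43.1 CPM in treated libraries, almost all of it from S100a8, which rose by 2.01 ± 0.15 on the log2 scale (edgeR adjusted p = 1.41e-08), with Mpo, Csf3r and Retnlg at 0. Ly6g, with 1 and 0 counts in control against 8 and 10, and S100a9, with 2 and 0 against 8 and 22, also lay higher in both treated libraries, and neither passed the count filter. Camp had 5 and 3 counts against 0 and 3. Of 6 T and B cell markers 4 were at 0 in all libraries and the sums were at most 0.433 CPM. The part of other cell types in the Itgb2 difference was not tested.

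The other beta subunits showed no called difference. Itgb1 had 1213 and 1164 CPM in control and 1114 and 1116 CPM in treated libraries, a log2 fold change of -0.09 ± 0.04 with a 95% interval from -0.18 to -0.00499 (edgeR adjusted p = 0.143). Its libraries did not overlap, and it was called lower without control replicate 2 (adjusted p = 5.79e-04), though in none of the other 12 alternatives. Itgb3 stood at 1144 and 1148 CPM in control and 1186 and 1202 CPM in treated libraries, with an interval from -0.03 to 0.15. The count ratio of Itgb3 to Itgb1 was 0.943 and 0.986 in control and 1.06 and 1.08 in treated cells, with both treated libraries above both controls. Per length Itgb1 stayed above Itgb3, at 292 against 206 RPKM with conditioned medium.

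Itgb5, which pairs with alpha v as a vitronectin receptor, had 300 and 266 counts in control and 299 and 442 counts in treated libraries. Its log2 fold change of 0.27 ± 0.10 was not called (edgeR adjusted p = 0.0686), though it was with a replicate block (0.0434) and without control replicate 1 (0.0135). Itgb7, a lymphocyte subunit, held 17 to 33 counts a library. Itgb6, an epithelial subunit that activates TGF-beta, had at most 4 counts, and Itgb8 had 0 in all libraries, which allows up to 0.167 to 0.217 CPM per library from counting error alone. The 5 genes below the filter were thus Itga8, Itga9, Itga11, Itgb6 and Itgb8.

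Among the adaptors, the complex of ILK, PINCH and parvin held both called genes. This complex sits on the beta tail side of the adhesion and links it to actin. Lims1 (Entrez 110829; mm10 chromosome 10, 58323342 to 58424691), the gene of PINCH1, stood at 209 and 227 CPM in control and at 181 and 179 CPM in treated libraries. The groups did not overlap and the log2 fold change was -0.28 ± 0.05 (SE; edgeR adjusted p = 3.29e-04). Leaving out conditioned medium replicate 2 ended the call (adjusted p = 0.0602), while over all 13 alternatives the lowest was 1.32e-12. Parva (Entrez 57342; mm10 chromosome 7, 112427706 to 112591688), the gene of alpha-parvin, was at 250.4 and 249.6 CPM in control and at 221 and 211 CPM in treated libraries. Its log2 fold change was -0.21 ± 0.04 (SE; edgeR adjusted p = 0.00233), and it too was not called without conditioned medium replicate 2 (adjusted p = 0.176, against 1.10e-05 at the lowest).

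Ilk and Parvb, the other members of the complex, were not called. Ilk, the pseudokinase scaffold, had 169.6 and 173 CPM in control and 161 and 163 CPM in treated libraries, a log2 difference of -0.08 ± 0.05 (edgeR adjusted p = 0.245). Taf10 on the opposite strand overlaps 2106 of the 2744 exon bases that Ilk has in the comprehensive annotation. The annotation used for counting is not given, so how far this affects the Ilk counts is not known. Parvb, the gene of beta-parvin, which binds ILK in place of alpha-parvin, had 209 and 210.1 CPM in control and 223 and 222 CPM in treated libraries (edgeR adjusted p = 0.188). The count ratio of Parva to Parvb was 1.198 and 1.188 in control and 0.993 and 0.952 in treated cells. Rsu1, which binds PINCH1 within the complex and was singled out after its values were seen, was at 85.5 and 87.7 CPM in control and 77.2 and 73.3 CPM in treated libraries. Its log2 fold change was -0.20 ± 0.05 (edgeR adjusted p = 0.0117), a call lost in DESeq2 and without either treated library (adjusted p up to 0.248 and down to 0.00315 over the alternatives).

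**Figure D5:**
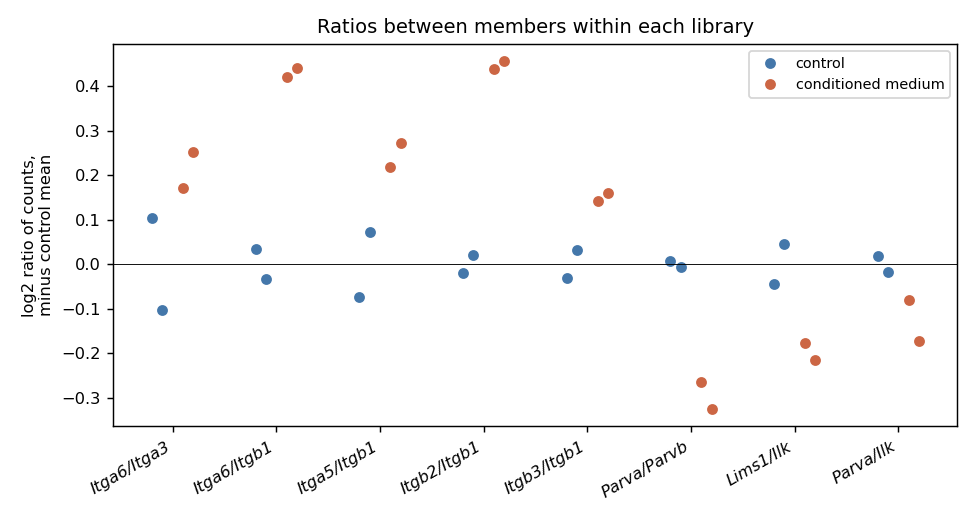
Log2 ratio of counts between pairs of genes within each library, set to the control mean at 0. Ratios to Itgb1 lie above the controls in both treated libraries, and the ratios of Parva to Parvb, Lims1 to Ilk and Parva to Ilk lie below them.

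Ratios within a library do not depend on the scaling between libraries, but the 8 pairs were chosen after the values were seen and were not tested. With 2 libraries a group an exact permutation test, two-sided, could not go below 0.333. The groups separated in all 8 pairs, among them Lims1 to Ilk at 1.23 and 1.31 in control and 1.13 and 1.09 in treated cells. The ratio of Itga5 to Itgb1 was 0.551 and 0.609 in control and 0.674 and 0.700 in treated cells.

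The talins and kindlins, which bind beta tails and activate integrins from inside, were not called. Tln1, the gene of the main talin, had 704 and 720.1 CPM in control and 746 and 724 CPM in treated libraries, with a 95% interval of the log2 fold change from -0.04 to 0.13. Fermt2, encoding kindlin-2, overlapped between groups at 208 and 198 CPM against 202 and 196 CPM, with an interval from -0.13 to 0.07. Tln2, the second talin gene, stood near 26.9 CPM in control and 25.8 CPM in treated cells, and Fermt3, the kindlin of blood cells, had 25 to 38 counts a library.

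Vinculin, zyxin and tensin genes likewise showed no called change. Vcl was at 639.7 and 624 CPM in control and 642 and 648 CPM in treated libraries, with an interval from -0.06 to 0.12, although the opposite strand gene Ap3m1 overlaps 2090 of its exon bases. Tns1 and Tns3, which bind beta tails in mature fibrillar adhesions, had log2 fold changes of 0.05 ± 0.04 and 0.05 ± 0.05. Zyx, a LIM protein recruited under tension, had 121 and 140 CPM in control, a wider spread than the 129 and 124 CPM of the treated libraries, and a log2 fold change of -0.04 ± 0.06.

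The 4 kinases and scaffolds of the group, Ptk2, Ptk2b, Pxn and Bcar1, were also not called. Signalling genes outside the group, some of them called, are counted further below. Ptk2, the gene of focal adhesion kinase, had 207 and 199.9 CPM in control and 218 and 211 CPM in treated libraries, a log2 difference of 0.08 ± 0.04 (edgeR adjusted p = 0.273). Its relative Ptk2b, encoding PYK2, had 12.3 and 11.2 CPM against 13.6 and 13.3 CPM. Pxn, encoding the scaffold paxillin, overlapped at 324 and 352 CPM in control and 334 and 331 CPM in treated libraries. Bcar1, encoding p130Cas, had 96.9 and 106 CPM in control and 105 and 115 CPM in treated libraries (edgeR adjusted p = 0.169). Of the 25 genes not called, 18 had a 95% interval that stayed within 0.3 of 0 on the log2 scale, and the intervals of the remaining 7 reached beyond it.

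Counting called genes by class, 4 of 16 tested integrin subunits rose and 1 fell (31.25% called), with a median log2 fold change of 0.13. Among all genes tested 16.8% were called, 8.53% higher and 8.23% lower. Of 16 focal adhesion genes 0 rose and 2 fell (12.5% called), with a median of 0.04, and whether the classes differ was not tested. The conditioned medium libraries lay both above or both below the controls in 22 of the 32 tested genes, 17 above and 5 below, where 57.2% of all tested genes separated, 28.5% above and 28.8% below.

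Genes outside the group that belong to the same machinery were read from lists. Of 23 tested matrix ligands of integrins 5 rose and 5 fell (43.5% called, beside 16.8% of all genes), with a median log2 fold change of 0.02. The largest called changes were falls of Ccn2, a matricellular growth factor, at -0.72 ± 0.04, Thbs1, thrombospondin-1, at -0.66 ± 0.04, and Tnc, tenascin-C, at -0.63 ± 0.13 (edgeR adjusted p = 8.26e-10, 2.06e-09 and 0.00130). Of the ligands of the receptors that rose, Fn1 and Lama5, both called higher, were picked after their values were seen. Spp1, Nid1 and Mfge8 were the others of the 5 called higher. Lamc1, a laminin chain, was called lower at -0.15 ± 0.04 (edgeR adjusted p = 0.0163), and Lama4 was not called at -0.02 ± 0.04. Of the collagens, Col8a1 was called lower at -0.43 ± 0.06, and Col4a1 and Col4a2 were not called at -0.10 ± 0.04 and -0.03 ± 0.04. Fn1, fibronectin, the ligand of the alpha 5 receptor, stood at 1428 and 1412 CPM in control and 1876 and 1804 CPM in treated libraries, a log2 difference of 0.37 ± 0.04 (edgeR adjusted p = 3.32e-06). Lama5, the laminin alpha 5 chain bound by alpha 6 and alpha 3 receptors, had 437 and 511 CPM in control and 560.3 and 571 CPM in treated libraries (edgeR adjusted p = 0.00251), a call lost without either treated library (adjusted p up to 0.158 and down to 4.27e-23 over the alternatives).

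Of 19 tested cell surface ligands and membrane partners 3 rose and 4 fell (36.8% called, beside 16.8% of all genes), with a median of 0.05. Sdc1, a heparan sulfate proteoglycan, was at 0.40 ± 0.06, and Jam3, a junctional adhesion molecule that binds Mac-1, at -0.36 ± 0.07 (edgeR adjusted p = 1.37e-04 and 0.00103). Icam1, a counter-receptor of the β2 integrins, was at 15.7 and 15.8 CPM in control and 9.68 and 11.6 CPM in treated libraries, lower by a log2 fold change of -0.55 ± 0.12, and was called (edgeR adjusted p = 0.00284) except without conditioned medium replicate 1 (0.0906, against 1.25e-04 at the lowest). Of 23 tested regulators of integrin activity and trafficking 2 rose and 3 fell (21.7% called, beside 16.8% of all genes), with a median of -0.01. Rasip1, an endothelial effector of Rap1, was higher at 0.42 ± 0.05 (edgeR adjusted p = 1.58e-05). Rap1a, a small GTPase that promotes talin recruitment, fell from 107 and 99.2 CPM to 77.7 and 78.4 CPM, or -0.40 ± 0.05 (edgeR adjusted p = 2.50e-05), while its paralog Rap1b, which was not called, had 535 and 512 CPM against 518 and 505 CPM. Filip1l was lower at -0.31 ± 0.05 (edgeR adjusted p = 4.05e-04).

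Of 27 tested further adaptors and LIM proteins 4 rose and 3 fell (25.9% called, beside 16.8% of all genes), with a median of 0.08. Sorbs2, a vinculin-binding adaptor, was at -0.33 ± 0.05, Palld, an actin-bundling protein, at 0.27 ± 0.06, and Limd1, a LIM protein, at 0.25 ± 0.06 (edgeR adjusted p = 9.12e-05, 0.00330 and 0.00489). Palld and Limd1 lost their calls in DESeq2 and without either treated library (adjusted p up to 0.0934 and 0.105, and down to 3.51e-06 and 4.51e-05). Of 33 tested kinases, GTPase regulators and signalling adaptors 4 rose and 4 fell (24.2% called, beside 16.8% of all genes), with a median of 0.03. Elmo1, a partner of DOCK proteins in Rac activation, was at -0.32 ± 0.05, Git1, a paxillin-binding scaffold, at 0.28 ± 0.05, and Yes1, a Src family kinase, at -0.22 ± 0.05 (edgeR adjusted p = 1.24e-04, 5.16e-04 and 0.00366). Git1 was not called without conditioned medium replicate 2, and Yes1 neither in DESeq2 nor without either treated library (adjusted p up to 0.0683 and 0.102, and down to 1.10e-12 and 5.08e-04). The smooth muscle list summed to 229 and 239 CPM in control and 244 and 243 CPM in treated libraries, nearly all of it from Smtn at 224 to 239.6 CPM, which was not called. Des and Tagln were at 1.37 to 2.38 CPM and Acta2 at or below 0.555 CPM. The fibroblast list summed to 33.9 and 36.9 CPM against 40.7 and 41.4 CPM. Pdgfra led it at 25.3 and 27.1 CPM in control and 31.6 and 32.1 CPM in treated libraries and rose (edgeR adjusted p = 0.0171), Pdgfrb was at 6.17 to 7.15 CPM, and Col1a2 and Lum were at 0. The epithelial list summed to 6.98 and 7.94 CPM against 9.96 and 9.48 CPM, mostly from Krt18 at 6.71 and 7.46 CPM against 9.46 and 9.21 CPM, without overlap and not called (edgeR adjusted p = 0.0653), with Cdh1, Krt5 and Krt14 at 0. The part of such cells in the results was not tested.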

How the data were processed

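The authors deposited raw counts per gene for 4 libraries, made from total RNA with the TruSeq RNA V2 kit, per the labels' protocols; that kit does not mark strand. STAR 2.5.2b, featureCounts and Subread 1.4.6-p1 appear in the submitters' processing notes, with mm10 as build. Counting settings and annotation: not given in the sources used here. Entrez identifiers were matched to RefSeq symbols of GRCm38.p6 (25275 of 27179 rows); the 1904 unmatched rows, with 6.31% of the counts, stayed in the fit. Counts were tested with edgeR 4.0.16 in R 4.3.3 (filterByExpr at a minimum of 10 counts, TMM, quasi-likelihood test, two-sided, no replicate block) on all 13897 genes that passed, with Benjamini-Hochberg adjustment over them. The fit left 2 residual degrees of freedom. The SE was taken from the F statistic as |log2 fold change|/√F, and intervals cover 95%. RPKM used the exon union of GENCODE's basic set. Exon overlaps between genes were taken from GENCODE's comprehensive set. Besides the genes named with an overlap above, Itga7, Itga8, Itgb4, Tln1, Zyx and Fermt3 also share exon bases with another gene. The floor of 3 counts covers counting error only. The p-values measure the spread between these libraries, with each gene's spread drawn toward that of the other genes by the fit. The intervals used the prior degrees of freedom from this step added to the residual ones. The SE, p-values and intervals thus do not rest on a gene's own libraries alone.

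The 13 alternatives changed the scaling (RLE, upper quartile, library totals), the filter (none, or 1 CPM in 2 libraries), the spread (robust) and the tool (DESeq2 1.42.0, limma-voom with limma 3.58.1), added a replicate block, or dropped each library in turn; a group left with 1 library is given the spread of the remaining group. Members, lists and tests were chosen with earlier results of these data known. Named genes outside the group are the 3 called genes of each list with the largest absolute change. Fn1, Lama5 and the matrix ligands named beside them were added after values were seen. So were Rsu1, Rap1b, Cd68, the markers named, the 8 ratios and the comprehensive exon lengths. The procedure was also run on simulated counts with known changes, and that run is not used as support for any call.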

Additional observations from a re-analysis of the deposited data

How the results depend on the processing

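Of the 7 called genes, 2 (Itga6 and Itgb2) were called in all 13 alternatives, and 8 of the 25 uncalled genes were called in at least 1. Those were Itga1, Itga3, Itgav, Itgb1, Itgb5, Zyx, Tns1 and Bcar1. For Itga1, Itgb1, Zyx, Tns1 and Bcar1 it happened only in a fit left with 1 control library. None of the 32 tested genes changed sign under the RLE, upper-quartile or library-total scalings, which moved the median of all genes by at most 0.0148 on the log2 scale. The share of calls that were higher was 50.9% with TMM and 57.2% with upper quartiles. DESeq2 called 904 genes in all (467 higher, 437 lower) against 2330 (1186 and 1144), and 2 genes of the group higher against 4. Leaving out 1 library gave 569 to 3107 calls in all, 323 to 1485 higher and 246 to 1622 lower. In the group it gave 2 to 7 higher and 0 to 4 lower. The 7 higher came without control replicate 1 and without control replicate 2, the 2 higher without either treated library, and the 0 lower without conditioned medium replicate 2, where 808 and 569 genes were called in all without treated libraries 1 and 2. The cause was not tested. With a replicate block 2671 genes were called, 5 of the group higher and 3 lower, Itgb5 being the gene gained. The labels do not say whether the replicate numbers pair the libraries. Replicate differences correlated at -0.04 across 10662 genes, a single value that cannot decide it. Itgb7, Itgb4, Itga10 and Fermt3, with under 50 counts a library, had intervals too wide to show differences of the size called elsewhere in the group.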
